A study of Homo sapiens with 12 samples.

Results

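The transcripts of 10 genes that control signalling from TNF receptors, among 20117 genes in the deposited table, were followed in human macrophage-like and endothelial cells given LDL. They were 5 TRAF adaptors (TRAF1, TRAF2, TRAF3, TRAF5 and TRAF6), the cIAP ubiquitin ligases BIRC2 and BIRC3, the ubiquitin-editing enzyme TNFAIP3, its partner TNIP1 and the deubiquitinase CYLD. The genes were listed by their known roles with the values of this table in view, so their levels and differences are a description, and counts of them carry no test. All 10 were in the table and passed the filter on low values. BIRC3 passed it only through the LDL libraries, in both lines, so its calls support nothing and its values are a description.

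The study asked what native LDL, isolated from donors with cardiovascular disease (CVD), does to macrophages and endothelial cells. THP-1 cells come from a monocytic leukaemia and were matured into macrophages with the phorbol ester PMA, while EA.hy926 is a hybrid of umbilical vein endothelial cells with the lung carcinoma line A549. The 4 groups were THP-1 with LDL, THP-1 control, EA.hy926 with LDL and EA.hy926 control, each with 3 libraries of total RNA labelled biological replicates. LDL stood at 100 µg/mL for 24 h in medium without serum, which was RPMI-1640 for the macrophages but DMEM for the endothelial hybrid, and control dishes had the same medium without LDL. PMA is named for THP-1 only. The effects of line, of PMA and of medium therefore cannot be told apart. Controls received no other lipoprotein, so LDL and any substance carried with it cannot be told apart.

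Values are normalised counts, the reads of a gene divided by a library size factor by the authors. The libraries held 4.32 to 11.0 M reads, and 1 read was worth 0.653 to 1.91 normalised counts. Normalised counts summed to 9.09 to 9.20 M in THP-1 LDL libraries and 7.19 to 7.28 M in THP-1 control libraries. In EA.hy926 the sums were 8.26 to 8.71 M with LDL and 7.94 to 8.13 M in control libraries. Per total reads, differences between LDL and control would therefore be lower than those given, and only BIRC3 is also given that way. The RNA of the signal recognition particle, RN7SL1, took 2.15% to 3.08% of reads in THP-1 LDL libraries and 1.74% to 2.07% in THP-1 control libraries. In EA.hy926 its share was 9.52% to 14.4% with LDL and 8.90% to 12.7% in control libraries. The nuclear RNA MALAT1 took 3.15% to 3.35% of reads in THP-1 LDL libraries and 1.57% to 1.73% in THP-1 control libraries, and genes of the mitochondrial genome 0.0407% to 0.0561% and 0.117% to 0.136%. Of these RNAs only RN7SL1 was entered in a fit, as a covariate, by the log2 of its normalised count + 1. The part of the others in the results was not tested. Of 12 macrophage markers, 11 reached a mean of 10 normalised counts in both THP-1 groups, and CD68 was listed at 0 there, so a group listed at 0 in this table does not show that a gene is silent. The summed level of these markers was 39784 to 43755 in THP-1 LDL libraries, 30823 to 32894 in THP-1 control libraries, 218 to 237 in EA.hy926 LDL libraries and 196 to 212 in EA.hy926 control libraries. In THP-1 the markers went both ways, 5 with a higher mean with LDL and 6 with a lower one: CSF1R averaged 17953 ± 834 with LDL and 9378 ± 656 in control libraries, and ITGAM 2497 ± 90.2 and 4876 ± 179.9. The 11 endothelial markers found summed to 25646 to 27079 in EA.hy926 LDL libraries and 27220 to 27550 in EA.hy926 control libraries. In THP-1 their sums were 3443 to 3973 with LDL and 3632 to 3994 in control libraries. Of them, EA.hy926 had 10 at a mean of 10 or more with LDL and 11 in control libraries. THP-1 had 6 with LDL and 7 in control libraries, and CDH5, KDR, TEK and ERG were listed at 0 there. Of 6 lung epithelial markers, looked at for the A549 parent, 3 reached that level in EA.hy926, with sums of 12925 to 13099 in LDL libraries and 10205 to 11069 in control libraries, and all 6 fibroblast markers were at 0 there. In THP-1 2 of these fibroblast markers did, with sums of 47.3 to 67.1 in LDL libraries and 30.5 to 36.7 in control libraries. The part of these marker levels in the results was not tested.

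TRAF proteins dock on the tails of TNF receptors, CD40 and interleukin-1 or Toll-like receptor complexes, and recruit enzymes that attach ubiquitin chains to the signalling proteins around them. TRAF2 holds the cIAP ligases at the receptor, where their chains build the platform that activates the IKK kinases and NF-kB, and TRAF3 with the same ligases keeps the kinase NIK low, which restrains the non-canonical branch. TNFAIP3, also called A20, edits these chains with help from TNIP1, and CYLD cuts them, so that these proteins limit the signal. TNFAIP3, BIRC3 and TRAF1 are themselves textbook target genes of NF-kB in many cell types.

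Because NF-kB is the best known regulator of several of these genes, the 250 bases before each RefSeq transcript start (build GRCh38.p14) were searched for its 10-base kappa B consensus on both strands. RefSeq promoters were found for 10 of 10 genes, with 18 windows in all, since TRAF1, TRAF5 and CYLD had 3 start sites each and BIRC2 and TNIP1 had 2 each. A match stood in 5 of 18 windows and in 5 of 10 genes, against 5.21% of 35116 windows and 6.28% of 27305 genes in the whole promoter table. The 5 windows with a match are shown 5′ to 3′ on the strand of the gene, in lower case with each match in capitals, because they hold every match found. Their positions are chr6:137867009-137867258, plus strand for TNFAIP3, chr11:102317234-102317483, plus strand for BIRC3, chr5:151081035-151081284, minus strand for TNIP1, chr14:102777199-102777448, plus strand for TRAF3 and chr16:50741836-50742085, plus strand for CYLD.
TNFAIP3: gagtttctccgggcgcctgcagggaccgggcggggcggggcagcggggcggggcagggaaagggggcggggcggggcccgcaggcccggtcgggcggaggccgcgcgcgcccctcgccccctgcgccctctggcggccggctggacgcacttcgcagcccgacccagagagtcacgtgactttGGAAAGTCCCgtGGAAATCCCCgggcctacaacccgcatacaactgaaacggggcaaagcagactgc
BIRC3: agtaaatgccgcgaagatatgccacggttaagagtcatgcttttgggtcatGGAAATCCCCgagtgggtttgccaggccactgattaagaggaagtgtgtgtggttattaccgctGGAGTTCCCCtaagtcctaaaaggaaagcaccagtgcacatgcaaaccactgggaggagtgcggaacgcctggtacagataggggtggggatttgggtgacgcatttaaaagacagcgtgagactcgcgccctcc
TNIP1: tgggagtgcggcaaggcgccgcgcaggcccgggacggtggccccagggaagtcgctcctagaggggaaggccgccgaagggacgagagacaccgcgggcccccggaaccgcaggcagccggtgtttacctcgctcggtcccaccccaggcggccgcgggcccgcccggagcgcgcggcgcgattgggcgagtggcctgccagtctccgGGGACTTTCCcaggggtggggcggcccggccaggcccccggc
TRAF3: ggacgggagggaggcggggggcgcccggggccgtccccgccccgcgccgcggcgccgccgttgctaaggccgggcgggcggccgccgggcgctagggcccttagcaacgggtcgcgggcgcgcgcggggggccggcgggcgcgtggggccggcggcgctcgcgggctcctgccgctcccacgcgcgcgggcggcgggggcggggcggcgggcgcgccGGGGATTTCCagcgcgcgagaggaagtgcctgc
CYLD: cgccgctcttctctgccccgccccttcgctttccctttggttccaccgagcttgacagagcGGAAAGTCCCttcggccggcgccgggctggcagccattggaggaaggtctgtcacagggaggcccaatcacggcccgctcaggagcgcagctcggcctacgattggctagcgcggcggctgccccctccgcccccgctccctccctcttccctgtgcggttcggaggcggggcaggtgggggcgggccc

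TNFAIP3 held 2 matches in tandem, 67 to 58 and 55 to 46 bases before the start, both reading on the opposite strand. BIRC3 also held 2 on the opposite strand, at 199 to 190 and 135 to 126 bases before its start. TNIP1 had a single match on the strand of the gene at 42 to 33 bases, TRAF3 another at 33 to 24 bases, and CYLD a match on the opposite strand at 189 to 180 bases before the matching one of its 3 starts. Read in the direction of the consensus, 2 exact spellings were shared by 3 of the 10 genes each, and both were picked after the sequences were seen. GGGGATTTCC stood in TRAF3, BIRC3 and TNFAIP3, against 0.125% of all genes, and GGGACTTTCC stood in TNFAIP3, TNIP1 and CYLD, against 0.216% of all genes, with both strands searched. TNFAIP3 held both spellings side by side, and each is a special case of the consensus. A match is a stretch of letters and was not tested as a binding site. In the windows of TRAF1, TRAF2, TRAF5, TRAF6 and BIRC2 the consensus was not found, which says only that these letters are not in those windows.

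**Figure D1:**
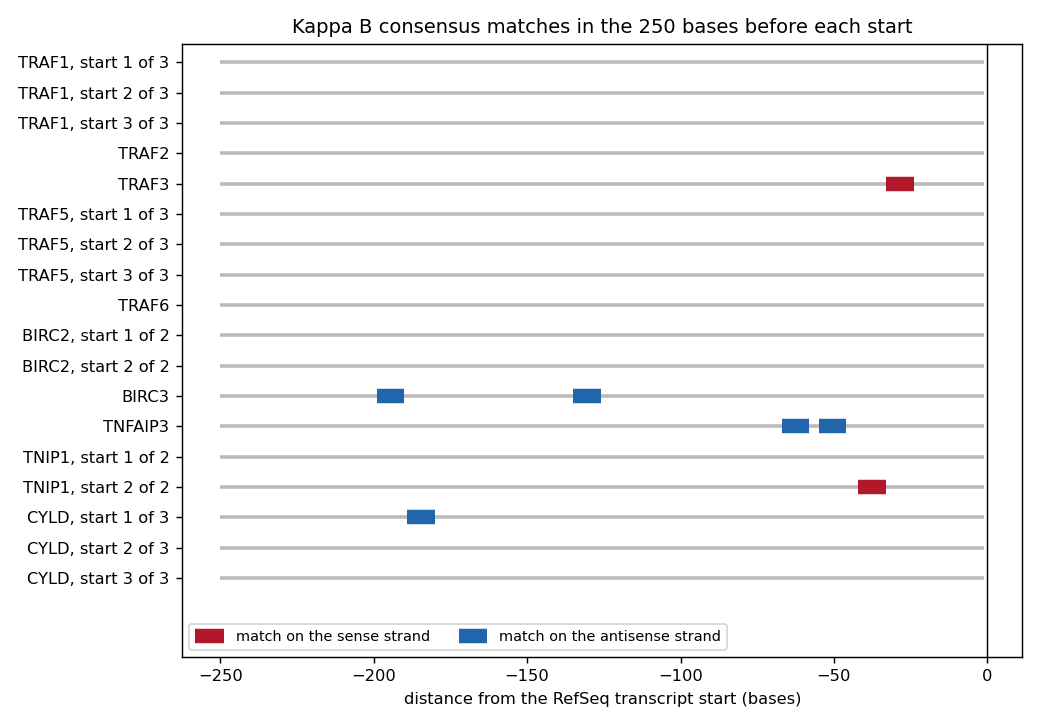
Positions of kappa B consensus matches (coloured segments, by strand) along the 250 bases before each of 18 RefSeq transcript starts of the 10 genes; the x axis is the distance from the start in bases. Matches stand in 5 windows, with 2 each in TNFAIP3 and BIRC3, while no window of TRAF1 holds one.

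By normalised counts, THP-1 macrophages with LDL carried far more TRAF1, BIRC3 and TNFAIP3 transcript, and moderately more TRAF3, TNIP1, CYLD, BIRC2, TRAF2 and TRAF5. TRAF6 did not pass the test. In a limma fit across 16167 genes with a Benjamini-Hochberg adjusted threshold of 0.05, 9 of 10 genes were higher with LDL and 0 were lower. In that fit 64.5% of all genes passed, 35.5% higher and 29.0% lower, or 5743 and 4682 genes, and with quantile normalisation 4636 and 5728. Because the 10 genes were listed with these values known, nothing is read from their count. THP-1 LDL libraries lay wholly above control libraries for 9 genes and wholly below for 1, TRAF6, against 37.5% and 31.4% of all genes tested. The median difference of log2(normalised count + 1) was 1.66 over the 10 genes and 0.08 over all genes tested. In EA.hy926 only 3 of 10 passed the threshold, TRAF1, BIRC3 and TNFAIP3, all higher with LDL. BIRC3 had passed the filter on low values through the LDL libraries alone, so its call supports nothing. Of all 14202 genes tested there, 2.01% passed, 0.873% higher and 1.13% lower. For TRAF1, BIRC3 and TNFAIP3 the EA.hy926 LDL libraries lay wholly above the control libraries, as for 8.15% of all genes. For 0 of the 10 they lay wholly below, against 8.25%. The median over the 10 genes there was 0.14, and over all genes tested 0.00.

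**Figure D2:**
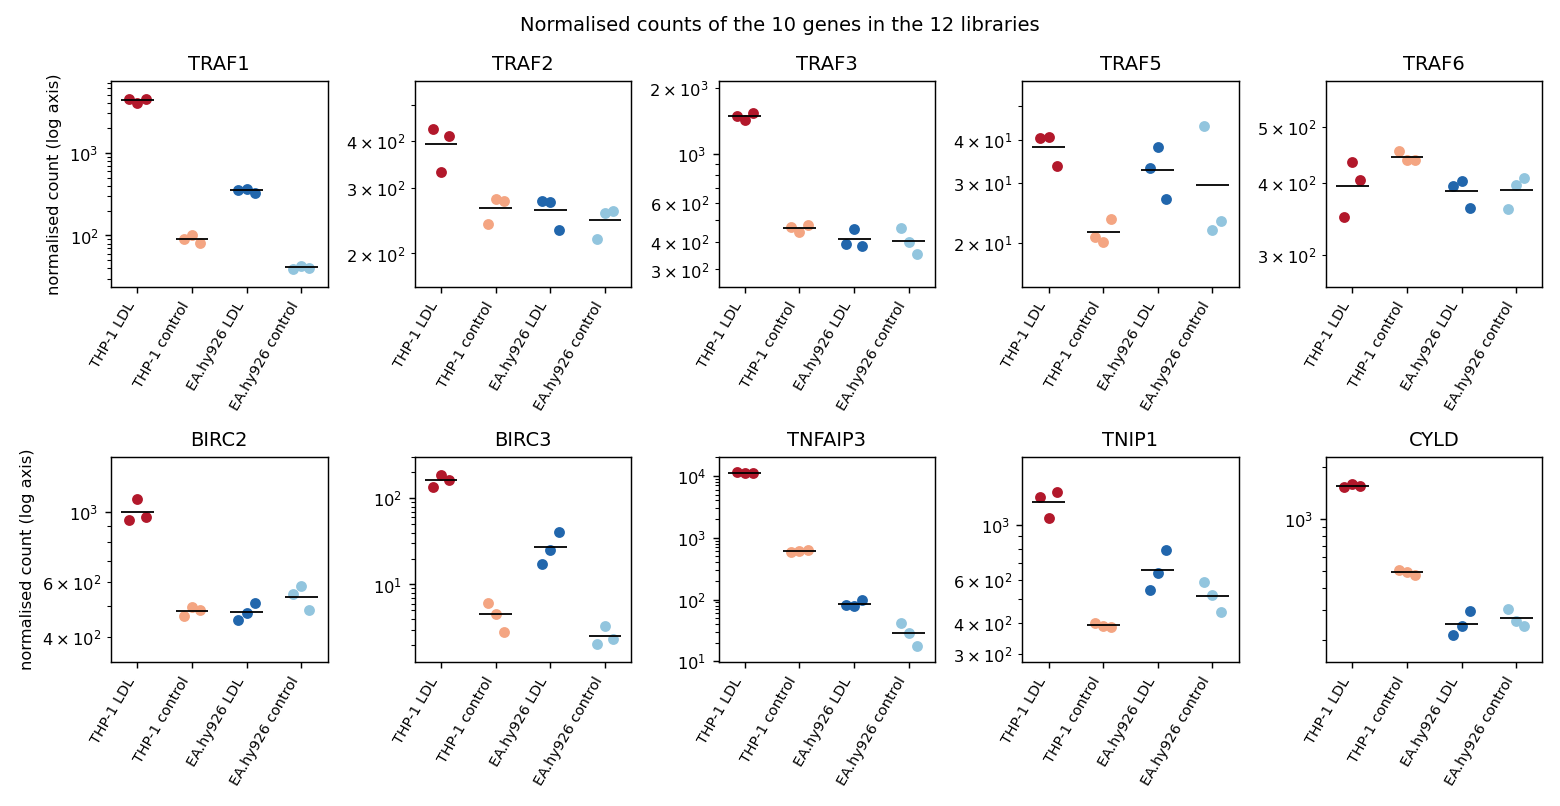
Normalised counts (log axis) of the 10 genes in each of the 12 libraries, in the groups THP-1 LDL, THP-1 control, EA.hy926 LDL and EA.hy926 control; points are libraries and bars group means. TRAF1, BIRC3 and TNFAIP3 lie above control in every LDL library of both lines, while the TRAF6 values stay between 349 and 455 in all 4 groups.

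Among the adaptors, TRAF1 differs from its relatives in lacking the RING domain that ligases use, and it binds TRAF2 and the cIAPs. TRAF1 (ENSG00000056558, chromosome 9, 120902393 to 120929173, minus strand, build GRCh38) stood at 4472, 4042 and 4409 normalised counts in the THP-1 LDL libraries, against 90.6, 103 and 81.8 in THP-1 control libraries. In EA.hy926 it stood at 355, 367 and 328 with LDL, against 39.8, 42.8 and 40.6 in control libraries. The groups did not overlap in either line, and the lowest LDL value lay many times above the highest control value in both. The log2 difference was 5.54 ± 0.088 (SE, n = 3 per group) in THP-1, the 71st from the top of 16167 genes, and 3.06 ± 0.16 in EA.hy926, the 47th from the top of 14202.

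TRAF3, which also serves the interferon branch of Toll-like receptor signalling, passed the threshold in THP-1, higher with LDL, and did not pass in EA.hy926. TRAF3 (ENSG00000131323, chromosome 14, 102777476 to 102911500, plus strand) had 1481, 1428 and 1531 normalised counts in THP-1 LDL libraries, against 469, 443 and 477 in THP-1 control libraries. In EA.hy926 it had 392, 456 and 384 with LDL, against 461, 398 and 351 in control libraries. The THP-1 groups were far apart, while the EA.hy926 groups overlapped. The log2 difference was 1.67 ± 0.066 in THP-1 and 0.03 in EA.hy926 (95% interval -0.26 to 0.32), an interval that leaves room for a modest change either way.

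TRAF2, the adaptor that carries the cIAPs to TNF receptors, had 431, 331 and 414 normalised counts in THP-1 LDL libraries, against 239.5, 279.7 and 277 in THP-1 control libraries. The THP-1 groups did not overlap, although LDL replicate 2 was close to the control values, and the log2 difference was 0.56 ± 0.11. Under TMM scaling it was 0.46 and with quantile normalisation 0.50, and both passed. With the RN7SL1 level as a covariate, chosen after seeing the data, it was 0.33 ± 0.24 and did not pass. That level did not overlap between the THP-1 groups. In EA.hy926 TRAF2 (ENSG00000127191, chromosome 9, 136881912 to 136926607, plus strand) had 277, 275 and 232 with LDL, against 219, 257 and 259.7 in control libraries, groups that overlapped, with a log2 difference of 0.09 (95% interval -0.21 to 0.39).

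TRAF5, a relative of TRAF2 that serves several lymphocyte receptors, was the lowest of the 5 TRAF genes per kb of exon in all 4 groups, at 40.5, 40.7 and 33.5 normalised counts in THP-1 LDL libraries, against 20.9, 20.3 and 23.5 in THP-1 control libraries. Its THP-1 groups did not overlap and its log2 difference was 0.80 ± 0.22, but it did not pass with quantile normalisation (0.47), with DESeq2 (0.77) or with the RN7SL1 covariate (0.64). In EA.hy926 TRAF5 (ENSG00000082512, chromosome 1, 211326615 to 211374946, plus strand) had 33.1, 38.2 and 26.9 with LDL, against 43.9, 21.9 and 23.2 in control libraries, where control replicate 1 was the highest of all 6.

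TRAF6, the adaptor of the interleukin-1 receptor and Toll-like receptors, had 349, 434 and 404 normalised counts in THP-1 LDL libraries, against 455, 438 and 437 in THP-1 control libraries. Every LDL value was under every control value, yet the log2 difference was small, -0.17 (95% interval -0.36 to 0.03), and did not pass. It passed as lower under TMM scaling (-0.26), quantile normalisation (-0.25) and edgeR (-0.27) and without THP-1 LDL replicate 2 (-0.24), and it was 0.14 with the RN7SL1 covariate, so no direction is given. In EA.hy926 TRAF6 (ENSG00000175104, chromosome 11, 36487027 to 36510272, minus strand) had 395, 403 and 362 with LDL, against 361, 396 and 408 in control libraries, and the groups overlapped.

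The cIAP genes lie on the same strand of chromosome 11 in GRCh38, BIRC3 at 102317450 to 102339403 (ENSG00000023445) and BIRC2 at 102347211 to 102378670 (ENSG00000110330), and both encode RING ligases that bind TRAF2. BIRC3, which encodes cIAP2, was close to the detection limit in control libraries. It had 136, 187 and 163 normalised counts in THP-1 LDL libraries, against 6.10, 4.57 and 2.82 in THP-1 control libraries. In EA.hy926 it had 17.2, 24.8 and 40.3 with LDL, against 2.04, 3.29 and 2.32 in control libraries. Neither line showed any overlap between LDL and control.

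The log2 difference of BIRC3 was 4.92 ± 0.27 in THP-1 and 2.94 ± 0.39 in EA.hy926. Adding 1 before the logarithm understates the change of so low a gene. From the recovered reads, 372 with LDL and 17 in control THP-1 libraries, the ratio after scaling by the authors' size factors was 35.4 (95% exact interval for counting error only, 21.8 to 61.5), and per total reads it was 27.9. In EA.hy926 62 and 7 reads gave a ratio of 11.2 (5.14 to 29.1) by size factors and 10.6 per total reads.

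BIRC2, which encodes cIAP1, was 945, 1104 and 961 normalised counts in THP-1 LDL libraries, against 465, 497 and 489 in THP-1 control libraries, so the groups were apart, with a log2 difference of 1.05 ± 0.077. In EA.hy926 BIRC2 was 452, 477 and 513 with LDL, against 549, 579 and 486 in control libraries. There the groups overlapped and the log2 difference was -0.16 (95% interval -0.41 to 0.09). Per kb of exon, BIRC3 made up 8.85% ± 0.729 of the summed level of the pair in THP-1 LDL libraries and 0.561% ± 0.219 in THP-1 control libraries (SD, n = 3). In EA.hy926 its share was 3.27% ± 1.16 with LDL and 0.284% ± 0.059 in control libraries, so BIRC2 was the more abundant cIAP transcript in all 4 groups.

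TNFAIP3 joins a deubiquitinase domain with zinc fingers that bind and build ubiquitin chains. TNFAIP3 (ENSG00000118503, chromosome 6, 137867188 to 137883312, plus strand) had 11359, 10942 and 11066 normalised counts in THP-1 LDL libraries, against 589.6, 615 and 632 in THP-1 control libraries. In EA.hy926 it had 80.8, 78.3 and 97.4 with LDL, against 41.8, 28.5 and 17.4 in control libraries. Both lines had all LDL libraries above all control libraries, and every THP-1 value exceeded every EA.hy926 value. The log2 difference was 4.18 ± 0.058 in THP-1 and 1.59 ± 0.30 in EA.hy926. The EA.hy926 call was lost without control replicate 2 (1.62) or LDL replicate 2 (1.65), the values hardly moving. The value moved more without control replicate 3 (1.28) or control replicate 1 (1.89), where the call was kept. Of its exon bases, 95 (1.88%) overlap an antisense gene, and whether the counting used strand was not stated in the sources used here.

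TNIP1, which binds TNFAIP3 and ubiquitin chains, had 1298, 1072 and 1372 normalised counts in THP-1 LDL libraries, against 401, 387 and 383 in THP-1 control libraries. The THP-1 groups did not overlap and the log2 difference was 1.67 ± 0.089. In EA.hy926 TNIP1 (ENSG00000145901, chromosome 5, 151029945 to 151093577, minus strand) had 544, 636 and 796 with LDL, against 586, 521 and 442 in control libraries, with a log2 difference of 0.34 (95% interval 0.02 to 0.67) that did not pass after adjustment. The groups overlapped there, since the lowest LDL value was under the highest control value.

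CYLD, a tumour suppressor that removes linear and other non-degradative chains, had 1525, 1587 and 1547 normalised counts in THP-1 LDL libraries, against 506, 493 and 475 in THP-1 control libraries. Replicates of each THP-1 group lay close together, and the log2 difference was 1.66 ± 0.064. In EA.hy926 CYLD (ENSG00000083799, chromosome 16, 50742050 to 50801935, plus strand) had 215, 241 and 293 with LDL, against 303, 259 and 242 in control libraries, which overlapped, with a log2 difference of -0.11 (95% interval -0.44 to 0.22).

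Several values in EA.hy926 moved with single libraries. LDL replicate 3, with 14.4% RN7SL1 reads, had the highest value of its group for BIRC2, BIRC3, TNFAIP3, TNIP1 and CYLD. It had the lowest value for the other 5, the TRAF genes. Control replicate 1, with 12.7%, had the highest for TRAF3, TRAF5, TNFAIP3, TNIP1 and CYLD. It had the lowest for 4 genes, TRAF1, TRAF2, TRAF6 and BIRC3. With the RN7SL1 level as a covariate the log2 differences in EA.hy926 were 3.09 for TRAF1, 2.83 for BIRC3 and 1.49 for TNFAIP3, and the same 3 genes passed. In THP-1 that covariate left 7 of 10 passing, with TRAF2 and TRAF5 lost. RN7SL1 there was higher in every LDL library than in any control library, so the covariate and LDL can hardly be told apart. The SE rose from 0.111 to 0.243 for TRAF2 and from 0.221 to 0.505 for TRAF5. The THP-1 values with this covariate, that of TRAF6 included, therefore say little about the genes.

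**Figure D3:**
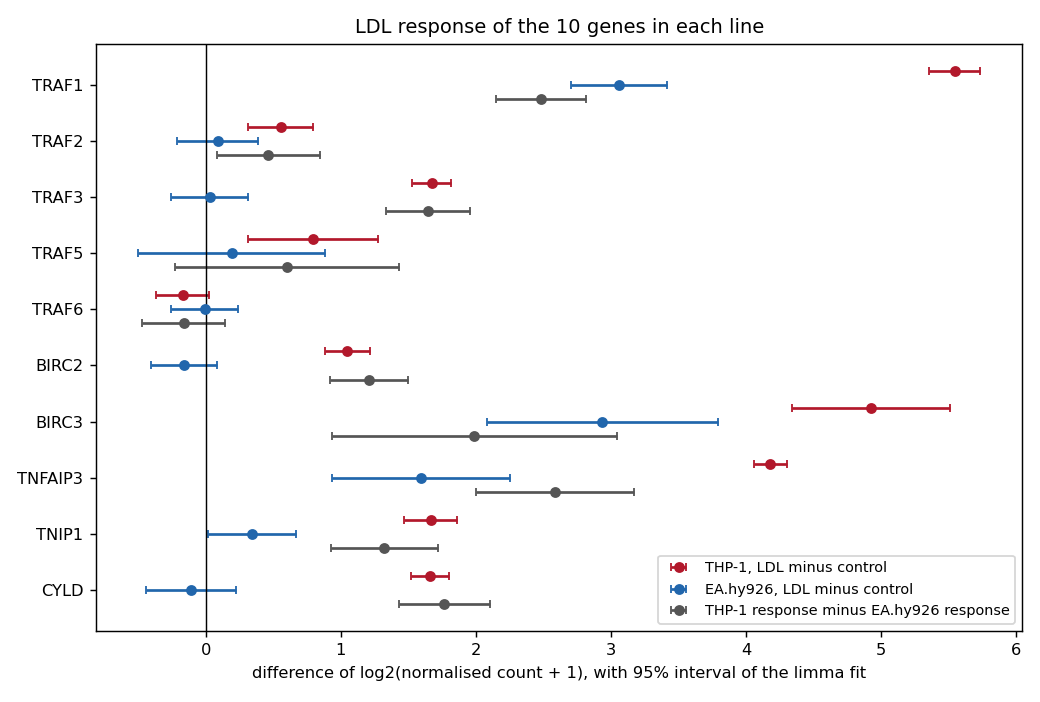
Difference of log2(normalised count + 1), LDL minus control, for the 10 genes in THP-1 and EA.hy926, with the 95% interval of the limma fit. Grey points show the THP-1 response minus the EA.hy926 response. In THP-1 the points run from -0.17 (TRAF6) to 5.54 (TRAF1); in EA.hy926 the points of TRAF1, BIRC3 and TNFAIP3 stand at 3.06, 2.94 and 1.59, and the others lie between -0.16 and 0.34.

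An interaction term over the 12 libraries tested whether the LDL response differed from line to line. The response was larger in THP-1 than in EA.hy926 for 8 of 10 genes, where 47.1% of 12534 genes passed, 25.2% with a THP-1 response above that of EA.hy926 and 21.9% below it. The difference of the log2 responses, THP-1 minus EA.hy926, was 2.59 ± 0.28 (SE) for TNFAIP3, 2.48 ± 0.16 for TRAF1 and 1.99 ± 0.50 for BIRC3. All of these passed in both lines, but BIRC3 entered the fits only through its LDL libraries. The difference was 1.77 ± 0.16 for CYLD, 1.64 ± 0.15 for TRAF3, 1.32 ± 0.19 for TNIP1 and 1.21 ± 0.14 for BIRC2, which passed in THP-1 alone. For TRAF2 it was 0.47 ± 0.18, the smallest that passed, and it was lost under TMM scaling, quantile normalisation, DESeq2 and 8 of the 12 fits that left out a library. BIRC3 was lost with quantile normalisation (1.12), edgeR (1.66) and DESeq2 (1.64). TRAF5, at 0.60 (95% interval -0.23 to 1.43), and TRAF6, at -0.16 (-0.47 to 0.14), did not pass.

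Levels of different genes were compared per kb of exon, taken from the union of each gene's exons in GENCODE 29, as a description. In THP-1 LDL libraries TNFAIP3 was highest at 2202 ± 42.5 normalised counts per kb, then TRAF1 at 668 ± 36.0, and then BIRC2 at 221 ± 19.3, TNIP1 at 215 ± 27.0 and TRAF3 at 179 ± 6.21. The ranges of BIRC2 and TNIP1, of TNIP1 and TRAF3, and of CYLD and TRAF2 overlapped there. In THP-1 control libraries TNFAIP3 was also highest, at 121 ± 4.26, followed by BIRC2 at 107 ± 3.62 and TRAF6 at 91.0 ± 2.01, and TRAF1 was only the eighth at 14.2 ± 1.62.

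The order was different in EA.hy926. With LDL, TNIP1 at 114 ± 22.0 and BIRC2 at 106 ± 6.79 led with overlapping ranges, and TRAF1 at 54.2 ± 3.07 overlapped TRAF3 at 49.7 ± 4.81. In EA.hy926 control libraries BIRC2 led at 119 ± 10.5 and TNFAIP3 was the eighth at 5.79 ± 2.42, a range that overlapped those of TRAF1 above and TRAF5 below it. BIRC3 was the lowest of the 10 in both control groups.

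Seen as a pool, the 5 TRAF genes summed to 1040 ± 48.6 normalised counts per kb in THP-1 LDL libraries and 236 ± 3.76 in THP-1 control libraries. TRAF1 made up 64.2% ± 0.685 of that pool with LDL and 6.02% ± 0.683 in control libraries. In EA.hy926 the pool was 258 ± 18.6 with LDL and 205 ± 3.95 in control libraries, and the share of TRAF1 was 21.0% ± 0.330 and 3.10% ± 0.068. TNFAIP3 per kb stood at 10.3 ± 1.25 times its partner TNIP1 in THP-1 LDL libraries and 1.80 ± 0.103 times in THP-1 control libraries. In EA.hy926 it was 0.151 ± 0.0170 times TNIP1 with LDL and 0.0633 ± 0.0184 times in control libraries, so the order of these partners was opposite in the lines. In bulk RNA, fewer cells expressing a gene and less RNA per cell cannot be told apart.

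**Figure D4:**
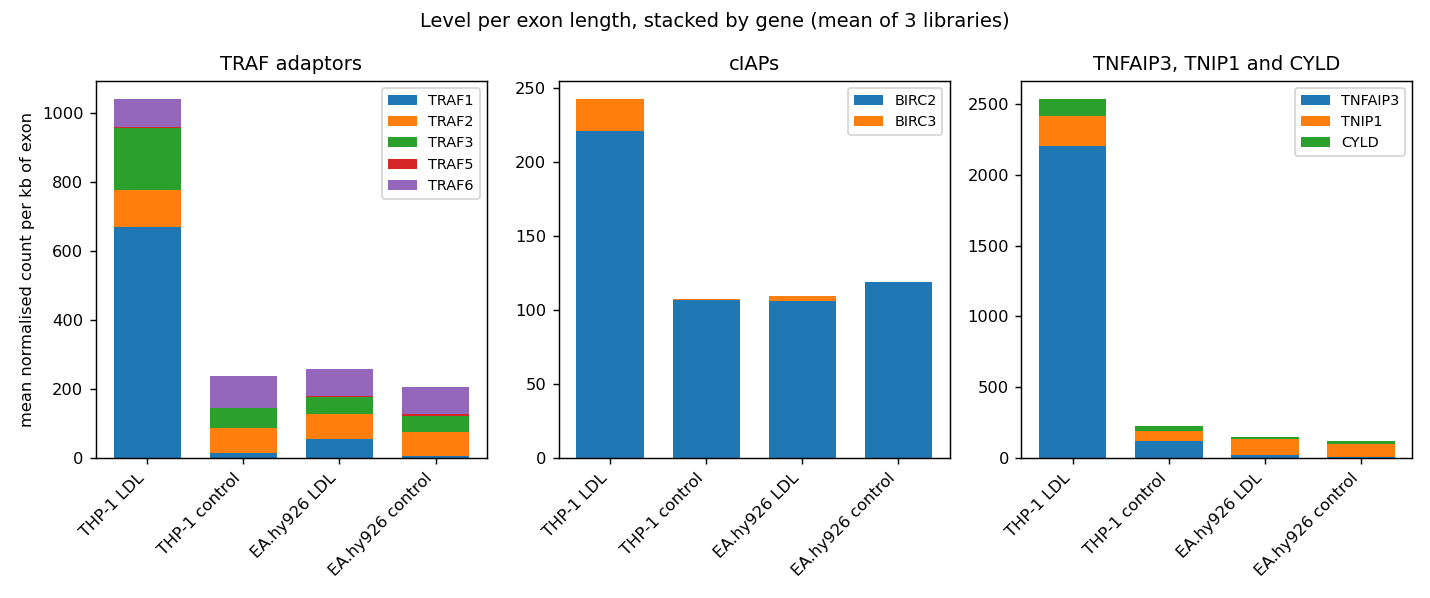
Mean normalised counts per kb of exon, stacked by gene, in the 4 groups (mean of 3 libraries per bar segment). The TRAF stack reaches 1040 in THP-1 LDL libraries, most of it TRAF1, against 236 in THP-1 control libraries, 258 in EA.hy926 LDL libraries and 205 in EA.hy926 control libraries.

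Between the lines, with no test, the level of TNFAIP3 in THP-1 was 130 times that in EA.hy926 with LDL and 20.9 times in control libraries. TRAF1 was 12.3 and 2.23 times, CYLD 6.22 and 1.83 times, and TRAF3 3.60 and 1.15 times as high in THP-1, with LDL and in control libraries. For TRAF6 the ratios were 1.02 and 1.14, close to even in both. BIRC2, TNIP1 and TRAF5 were below EA.hy926 in control libraries, at 0.899, 0.757 and 0.726 times, and above it with LDL, at 2.09, 1.89 and 1.17 times.

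The rest of the pathway was taken from 6 lists chosen by known role. Their THP-1 counts stand beside 35.5% of all genes higher with LDL and 29.0% lower, and beside a median log2 difference of 0.08 over all genes. OTUD7A, TNFRSF13C, TNFRSF18 and IL18R1, counted below, passed the filter on low values through a single THP-1 group. Of the relatives of the TRAF and IAP genes, 6 of 12 were higher with LDL, 4 lower and 2 did not pass, with a median of 0.14, shares not far from those of all genes. TRAFD1, a zinc finger protein that dampens Toll-like receptor signalling, averaged 1601 ± 63.5 normalised counts with LDL and 392 ± 27.1 in control libraries (2.03 ± 0.073, limma adjusted p = 8.5e-11). TRAF3IP2, the adaptor of the interleukin-17 receptor, averaged 468 ± 21.0 and 122 ± 11.4 (1.93 ± 0.10). XIAP, which inhibits caspases, averaged 1209 ± 120 with LDL and 549 ± 21.5 in control libraries. BIRC5, or survivin, a protein of dividing cells, fell by 2.38 on the log2 scale, to 140.1 ± 35.1 with LDL against 716 ± 43.9.

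Of the partners and relatives of TNFAIP3 in THP-1, 11 of 12 tested genes were higher with LDL and 0 lower, with a median of 0.76, while TNIP3 was listed at 0 in every library. ZC3H12A, an RNase that degrades cytokine transcripts, averaged 3289 ± 318 normalised counts with LDL and 284 ± 19.0 in control libraries (3.53 ± 0.083, limma adjusted p = 1.3e-12). TNFAIP8 averaged 1154 ± 106 and 222 ± 7.07, and TANK, which binds TRAF proteins and the kinase TBK1, 1097 ± 37.3 and 256 ± 5.95. TNIP2, a relative of TNIP1, averaged 309 ± 18.2 with LDL and 169 ± 3.26 in control libraries (0.87 ± 0.093).

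Enzymes that make or read linear and other non-degradative ubiquitin chains had 8 of 17 genes higher with LDL in THP-1, 6 lower and a median of 0.15, also near the shares of all genes. USP18, which removes the ubiquitin-like ISG15, averaged 1444 ± 149 and 185 ± 10.5, a log2 difference of 2.96 ± 0.087. PELI1, a ligase of Toll-like receptor signalling, averaged 688 ± 63.7 with LDL and 146 ± 11.9 in control libraries, and UBE2D3, a conjugating enzyme, 3360 ± 257 and 1701 ± 24.8.

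The complex around TNF receptor 1 and its kinases had 12 of 17 genes higher with LDL in THP-1 and 3 lower, with a median of 0.56. CFLAR, which blocks caspase-8, stood out at 7211 ± 130 normalised counts with LDL and 929 ± 23.3 in control libraries (2.96 ± 0.057, limma adjusted p = 2.2e-13). CASP8 itself averaged 783 ± 25.2 and 430.5 ± 12.0, and the kinases IKBKE and TBK1 2712 ± 366 and 1080.0 ± 101 with LDL against 1104 ± 15.1 and 611 ± 28.0 in control libraries.

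In the non-canonical branch, 4 of 9 genes were higher with LDL in THP-1 and 1 was lower, against the 35.5% and 29.0% of all genes. NFKB2, the precursor of p52, averaged 3845 ± 247 and 398 ± 3.26, and its partner RELB 1175 ± 165 and 135 ± 0.985, with log2 differences of 3.27 ± 0.066 and 3.10 ± 0.10. The receptor CD40 averaged 1384 ± 143 with LDL and 59.0 ± 2.62 in control libraries, and TNFRSF12A, the receptor of TWEAK, 492 ± 57.1 and 46.4 ± 7.42. NIK, encoded by MAP3K14, did not pass and was named after its value was seen, at 124 ± 29.3 with LDL and 99.5 ± 11.6 in control libraries.

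Receptors and adaptors that bind TRAF proteins had 11 of 16 genes higher with LDL in THP-1, 2 lower and a median of 1.60. IRAK2, a kinase of the interleukin-1 receptor complex, averaged 1798 ± 75.0 and 33.9 ± 5.59, a log2 difference of 5.70 ± 0.12 (limma adjusted p = 4.5e-13). MYD88, the adaptor that joins these receptors to the IRAK kinases, averaged 1716 ± 43.7 and 335 ± 41.5, and TNFRSF9, a costimulatory receptor, 1150.0 ± 76.7 with LDL and 299 ± 3.78 in control libraries. CD40, LTBR and CHUK each count in 2 lists.

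In EA.hy926, where 2.01% of all genes passed, the first 4 lists had 0 passing of 11, 11, 17 and 17 tested genes by limma, and 0 by edgeR and DESeq2. At an unadjusted limma p under 0.05 they had 1, 2, 1 and 1, and lists this short are too small to set against that share. RELB, the only one of 8 in the non-canonical branch, averaged 230.2 ± 29.3 normalised counts with LDL and 56.6 ± 12.0 in control libraries (2.02 ± 0.20, limma adjusted p = 1.5e-04). Of the 11 receptors and adaptors 1 passed, TNFRSF9, named after its value was seen, at 18.3 ± 2.58 with LDL and 1.79 ± 1.60 in control libraries. It passed the filter on low values only through the LDL libraries, so its call supports nothing. NFKB2, also named after its value was seen, averaged 482 ± 52.8 and 344 ± 11.1 and did not pass (limma adjusted p = 0.075).

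**Figure D5:**
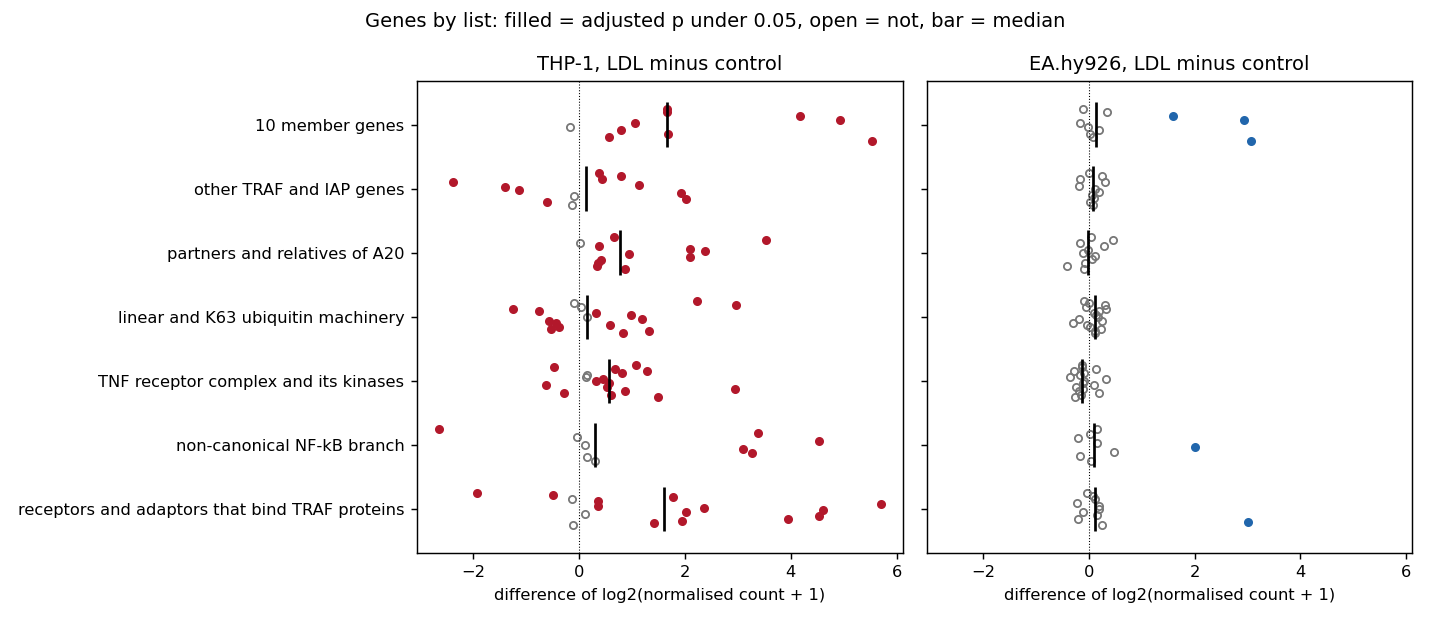
Difference of log2(normalised count + 1), LDL minus control, for the 10 member genes (top row) and each gene of the 6 pathway lists in THP-1 and EA.hy926. Filled points passed the adjusted threshold of 0.05, open points did not, and bars are medians. The THP-1 medians of the 6 lists run from 0.14 to 1.60, and that of the members is 1.66. In EA.hy926 3 points are filled for the members. A single point is filled there for each of 2 lists (RELB and TNFRSF9, which passed the filter on low values only through LDL).

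The genes with the most similar profiles were ranked by the root mean square difference of centred log2 values over the 12 libraries, among 12494 genes. Nearest to BIRC3 were the chemokine gene CXCL1 at 0.556 and TRAF1 at 0.566, then RELB at 0.822 and SOD2, a mitochondrial superoxide dismutase, at 0.832. Nearest to TRAF1 were BIRC3 at 0.566, CXCL1 at 0.690, SOD2 at 0.777 and the adhesion molecule ICAM1 at 0.921. TNFAIP3 had other neighbours, ADPRHL1 at 0.639, FCAR at 0.646, SDS at 0.650 and HSH2D at 0.656, all of them listed at 0 in EA.hy926. Those 0 values entered the ranking as they stood, although a 0 in this table does not show that a gene is silent. TNFAIP3 averaged 85.5 with LDL and 29.2 in control libraries of EA.hy926, so the likeness of these neighbours does not cover its difference in that line.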

How the data were processed

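The 12 libraries were labelled with line, treatment and replicate, and all were used. The deposited signal is in normalised counts, which the authors made by dividing the reads of each gene by a library size factor. Named in the submitters' processing notes are STAR, HTSeq, DESeq2, FastQC, MultiQC and the build GRCh38, with versions, annotation release and strand setting not given in the sources used here. In 100% of values whole reads were recovered within a tolerance of 0.001. Gene symbols came from a list of gene names (20104 of 20117 IDs matched), coordinates and exon lengths from GENCODE 29 (GRCh38, whose gene versions are older than the table's), and promoters from RefSeq.

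Each line was fitted with limma 3.58.1 (R 4.3.3), two-sided with an intensity trend, on log2(value + 1), over all genes whose mean reached 10 in either group. The adjustment was that of Benjamini and Hochberg, the threshold 0.05. The lines were compared by an interaction over 12 libraries, for genes that reached that mean in both lines. Alternatives were a pseudocount of 8, no filter, TMM scaling, quantile normalisation, edgeR 4.0.16 and DESeq2 1.42.0 on the recovered reads, a replicate block, all 12 libraries in a shared fit, and each library left out. The fits were tested on simulated data. No replicate pair agreed within sampling noise (chi-square over its degrees of freedom, 1.85 to 18.5), and p-values measure only the spread between these libraries, which may be technical. Counting intervals cover counting error only.

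The members and the lists were chosen with earlier results of these data known. All 10 members are named. From each list, up to 4 genes per line with the smallest adjusted p past the threshold and a mean reaching 50 are named, and the 4 nearest profiles with that mean for TNFAIP3, BIRC3 and TRAF1. A gene met by this rule is not reported here.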

Additional observations from a re-analysis of the deposited data

Results flagged for a closer look

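For 8 of the 10 genes the LDL response differed between the lines by the interaction test, which 47.1% of all 12534 genes tested passed. Of the 8 calls, those of TRAF2 and BIRC3 were lost under several alternatives, among them quantile normalisation and DESeq2. BIRC3 entered the fit only through its LDL libraries, so its call supports nothing. The difference of the log2 responses, THP-1 minus EA.hy926, was 2.59 for TNFAIP3, 2.48 for TRAF1, 1.99 for BIRC3, 1.77 for CYLD, 1.64 for TRAF3, 1.32 for TNIP1, 1.21 for BIRC2 and 0.47 for TRAF2. Line, PMA and medium cannot be told apart in these values. The part of the macrophage markers in them was not tested. Of these markers, 5 had a higher and 6 a lower mean in THP-1 LDL libraries than in THP-1 control libraries. Groups of 3 libraries are too small for the test of single outlying libraries, so none was made.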

How the results depend on the processing

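The numbers of genes called were 10425 in THP-1, 285 in EA.hy926 and 5901 for the difference. With edgeR on recovered reads they were 10610, 294 and 6002, and with DESeq2 9321, 336 and 5835. The RN7SL1 covariate, chosen after seeing the data and without overlap between the THP-1 groups, gave 6417 in THP-1. In EA.hy926 it gave 703, where no filter gave 466 and a shared fit of 12 libraries 473. The cause was not tested. Leaving out 1 library gave 9174 to 10446, 220 to 341 and 5208 to 5906, with 9 to 10, 2 to 3 and 7 to 8 members passing. Higher and lower calls in THP-1 were 5743 and 4682 as deposited, 5087 and 5374 with TMM, and 4636 and 5728 with quantile normalisation, whose medians over all genes were 0.08, -0.02 and -0.08.

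Members passing in THP-1 were 10 with TMM or edgeR, 9 with quantile normalisation (8 higher and 1 lower), 8 with DESeq2 and 7 with the covariate. For the difference they were 7 with TMM or edgeR and 6 with quantile normalisation or DESeq2. The sign turned for values near 0 only: TRAF6 was 0.14 in THP-1, 0.028 in EA.hy926 and 0.0028 for the difference with the covariate, and -0.058 to 0.040 in EA.hy926 with a library left out. TRAF3 in EA.hy926 was -0.065 to 0.13 with a library left out. Of all values of members under the alternatives, 467 kept their direction and side of the threshold, 21 no longer passed, 4 newly passed and 8 changed sign; for the named list genes, which had been picked for small adjusted p, 360 of 360 kept both.

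Replicate numbers did not pair the libraries: deviations of same-numbered libraries correlated at -0.10, -0.091 and 0.055 in THP-1 and at -0.32, 0.024 and -0.29 in EA.hy926. With a replicate block 10377, 231 and 5166 genes passed, and 9, 3 and 7 members, TRAF2 being lost for the difference. Depth limits BIRC3 most, with 17 and 7 reads in all THP-1 and EA.hy926 control libraries.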
